A study of Caenorhabditis elegans with 2 samples.

Results

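UNC-130 peaks inside introns are the regions described here. They come from chromatin immunoprecipitation followed by sequencing (ChIP-seq) of the nematode Caenorhabditis elegans, in which DNA bound by a tagged protein is recovered and mapped. The animals were whole L1 larvae, the first larval stage, labelled as mixed sex (pooled male and female). All were of strain OP77, which carries the unc-119(ed3) III mutation and the integrated transgene wgIs77, from which UNC-130 is made with a tag of enhanced green fluorescent protein (eGFP). The labels name unc-130 as the antibody and eGFP-unc-130 as the target, so it is not settled whether the untagged protein was recovered too. There is 1 group with 2 biological replicates, and no control library was analysed here, so no contrast between conditions exists. Members were taken from the authors' optimal list of 2631 peaks on the ce11 build. A peak was kept when its summit lay more than 500 bp from the 5′ end of every protein-coding gene, inside a protein-coding gene body, and in no coding exon or untranslated region. This left 490 peaks, or 18.6% of the list (95% Wilson interval 17.2 to 20.2). They are set beside 1373 promoter peaks, whose summits lay within 500 bp of a gene 5′ end, and 717 peaks outside protein-coding genes. Since the classes follow from position, their sizes are no finding. All intervals cover counting error only.

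UNC-130 is a forkhead transcription factor of the FoxD class, known in this animal from genetics for roles in cell and axon migration and in the fate of sensory neurons. Forkhead proteins bind DNA through a winged-helix domain whose preferred core is TGTTTAC or a close relative of it. Introns of C. elegans are mostly short, and the long ones are known to hold enhancers, internal promoters of shorter transcripts, and small non-coding RNA genes such as tRNA and snoRNA genes. An E-box is the class of site bound by basic helix-loop-helix proteins, of which the palindrome CACGTG is one form.

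The sequences below hold words that the results turn on. The palindrome CACGTG was found within 50 bp of 59 summits, and 4 of the highest such peaks are printed below, chosen after their values were seen. Capitals mark the word, and all sequences are 30 bases of the plus strand of ce11 (the WBcel235 assembly), taken from RefSeq's genome.
nurf-1 intron 11, chrII:14399804-14399833: ttgttcagcagtCACGTGgttaatttacac
T28B11.1 intron 1, chrV:10715940-10715969: tcgtctcgcgcgCACGTGaccggagggaag
pkg-2 intron 5, chrIV:8527884-8527913: agaagtgatagtCACGTGattggcactggt
nhr-19 intron 2, chrII:9603675-9603704: acacattgatatCACGTGgggttgaagatc

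The alternating purine word GAGAGA was the commoner one and lay within 50 bp of 150 summits, read on either strand, so that its complement TCTCTC counts as the same word. In 4 of the highest such peaks, again chosen after their values were seen, the word is in capitals. The copy in pqn-41 is part of a longer alternating run, while the copy in epg-9 stands alone.
epg-9 intron 2, chrIV:2602190-2602219: gtagtcatatgaTCTCTCatcacgggggga
pqn-41 intron 15, chrIII:1925168-1925197: ttctctgctcccTCTCTCtctctctctcgt
mnk-1 intron 3, chrII:10552141-10552170: gcgatggtggccGAGAGAtggttcttctcg
nhr-19 intron 2, chrII:9601255-9601284: agatagtgaattGAGAGAgagattccaaga

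The forkhead core, searched as TGTTTAC or TGTTTGC on both strands, was within 50 bp of 26 summits. Among the highest of these peaks the core is in capitals, with GCAAACA and GTAAACA as its reverse complements. In mtm-3 the forkhead core shares its last bases with a copy of the palindrome CACGTG.
pxn-1 intron 17, chrV:8500537-8500566: tataagcgactGCAAACAcacttagcgacg
scc-2 intron 1, chrII:255312-255341: ttcaaagcgatGCAAACAcgctccatcgag
fkh-7 intron 1, chrIV:5591286-5591315: tttttgtgttgTGTTTGCctctctgtttca
mtm-3 intron 3, chrIII:3797260-3797289: tttcattccgaGTAAACAcgtgacgctgat

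The 490 peaks lay in 375 host genes, which is 2.21% of the 16936 genes with intron sequence that the rule could accept (eligible sequence below). Of these hosts, 306 held 1 peak, 39 held 2 and 21 held 3, while 6 held 4 peaks, 1 held 5 and 2 held 7. In all, 408 different introns held a peak. Eligible introns span 29.1 Mb, so the mean density was 16.9 peaks per Mb. Where gene bodies overlap, the innermost intron was taken as the host, and 5 summits lay in the bodies of more than 1 gene.

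Intron peaks favoured long introns. The median length of the host intron, counted by peak, was 2396 bp (quartiles 790 and 5276, range 55 to 100801 bp), against 999 bp at the median eligible base. With each of the 408 introns counted once, the median was 1743 bp (quartiles 578 and 4176). Density was 31.3 peaks per Mb (95% Poisson interval 27.6 to 35.3) in introns over 2000 bp and 10.9 (9.48 to 12.4) in those of 2000 bp or less, 2.88 times as high. The intervals treat peaks as independent, which several peaks in 1 intron are not. Among introns of 2000 bp or less, the 3 length classes ranged only from 9.83 to 11.7 peaks per Mb. Above that length density was 27.7 per Mb in introns of up to 5000 bp, 34 in those from there to 10000 bp and 42.7 in those over 10000 bp, with overlapping intervals for neighbouring classes. The longest host intron was the first of nhr-27, a nuclear hormone receptor gene, at 100801 bp. Its single peak was weak, at rank 2537 of 2631, with a signal of 21.5 in replicate 1 and no listed peak in replicate 2. Next in length came introns of Y75B7AL.2 (20993 bp), Y48C3A.5 (19925 bp), T28B11.1 (17091 bp) and fkh-7 (16465 bp).

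First introns held 131 peaks, or 26.7% (95% Wilson interval 23 to 30.8), and 16.7% of the eligible sequence. Their density was 26.9 peaks per Mb, against 12.4 to 20.3 for introns numbered 2, 3, 4, 5 and above, of which number 5 stood highest. First introns are also longer, and within a length class the gap was smaller. In introns over 2000 bp the density was 33.9 per Mb (interval 27.4 to 41.4) for first introns and 30 (25.7 to 34.8) for later ones, which overlap. In shorter introns it was 17.2 (12 to 24) for first and 10.2 (8.76 to 11.7) for later introns, which do not overlap. Density showed no trend with distance from the host's 5′ end, at 15.5 to 19.5 per Mb in the 5 distance classes from 500 to over 10000 bp. The median summit lay 3405 bp from that end and 507 bp from the nearer end of its intron.

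**Figure D1:**
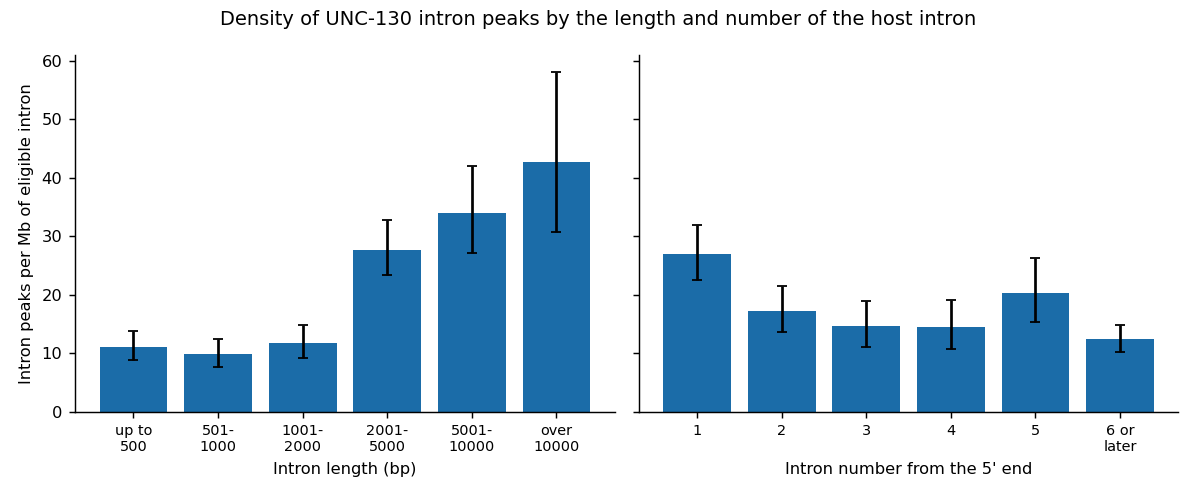
Intron peaks per Mb of eligible intron sequence (y axis) by the length of the host intron in bp (left) and by its number from the 5′ end of the gene (right). Bars are densities and whiskers 95% Poisson intervals over peaks. The 3 classes over 2000 bp stand at 27.7 to 42.7 per Mb and the 3 shorter ones at 9.83 to 11.7, while first introns reach 26.9.

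The peaks were ranked by the signal that the authors' peak caller gave each peak of the optimal list, which was called on both replicates pooled. Signals from the lists of the single replicates are given beside it; values of different lists are on different scales and are not compared. The highest intron peak, at rank 24 of 2631, was in the 11th of 25 introns of nurf-1 (chromosome II 14399647 to 14399896), which encodes the largest subunit of the NURF chromatin remodelling complex. Its signal was 133 in the pooled list, 90.4 in replicate 1 (rank 17) and 37.9 in replicate 2 (rank 145). The summit lay 280 bp from the start of a shorter nurf-1 transcript and 8840 bp from the nearest gene 5′ end. Second was epg-9 (IV 2602060 to 2602309), an autophagy gene, with a pooled signal of 132, 70.9 in replicate 1 (rank 50) and 62.2 in replicate 2 (rank 21). It lay in the second intron, 1044 bp from the nearest start of a protein-coding transcript, and was among the 50 highest peaks of both lists. These values show high peaks deep inside a gene and high peaks with no annotated start of a protein-coding transcript nearby.

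The next peaks belong to genes of varied roles. The peak in intron 17 of pxn-1 (V 8500411 to 8500660), which encodes a peroxidasin of the extracellular matrix, had a pooled signal of 106, and 57.8 and 51.7 in replicates 1 and 2. It coincided with the snoRNA gene ZK994.7. The peak in intron 15 of pqn-41 (III 1925058 to 1925307), a gene needed for the death of the linker cell, ranked 76, with signals of 48.3 and 60 in the replicates. A peak in the first intron of scc-2 (II 255238 to 255487), a cohesin loader, had 100, and 70.9 and 25.9 in the replicates, so that it ranked 51 in replicate 1 and 459 in replicate 2. Below these stood unk-1, mnk-1 (a kinase gene of the MAP kinase pathway), nhr-19, fkh-7 (a forkhead gene), dhc-4 (a dynein heavy chain gene), nhr-14, eif-2Bdelta (a subunit of a translation initiation exchange factor), F26F12.3, T28B11.1 and sftd-3, with pooled signals of 77.6 to 94.1. Of these 15 peaks that of F26F12.3 stood lowest in replicate 2, at rank 2416. At the low end, peaks of lin-14, ZK809.8 and F36G3.1 had a pooled signal of 23.6, just above the 23.5 of the lowest optimal peak.

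Intron peaks as a whole were weaker than promoter peaks. Their median pooled signal was 33 (quartiles 27.7 and 44.2), against 40.6 (30.7 and 57.4) for promoter peaks and 33.5 (27.5 and 44.1) for peaks outside genes. A listed peak of both replicates overlapped 477 of the 490 by at least 1 bp. These lists are long, with 30000 peaks for replicate 1 and 25234 for replicate 2. Overlap was near complete in every class. In replicate 1 it was 99.4% for intron peaks, 99.6% for promoter peaks and 99.3% for peaks outside genes. In replicate 2 it was 98%, 97.7% and 98.3%. Of all intron peaks, 254 (51.8%) overlapped one of the 2631 highest peaks of each replicate, against 837 of 1373 promoter peaks (61.0%). The difference of -9.12 percentage points was past the threshold (Fisher's exact test, two-sided, adjusted p = 0.00102 over 2 comparisons). The optimal list was itself derived from these lists, and its intron peaks were lower in pooled signal. The test therefore cannot tell whether intron peaks repeat less well than promoter peaks of like signal. Against the 53.4% of peaks outside genes the difference did not pass (exact adjusted p = 0.598). By replicate, 75.9% of intron peaks and 88.0% of promoter peaks were among the highest of replicate 1, while in replicate 2 the shares were 73.9% and 71.4%. The lower share of intron peaks in both lists thus came with a gap in replicate 1 and none in that direction in replicate 2. Among the 1315 highest optimal peaks the difference turned round, to 4.05 points higher for intron peaks (exact adjusted p = 0.259). Across the 477 peaks Spearman's rank correlation between the replicates' signals was 0.12, a description of peaks already selected on pooled signal.

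**Figure D2:**
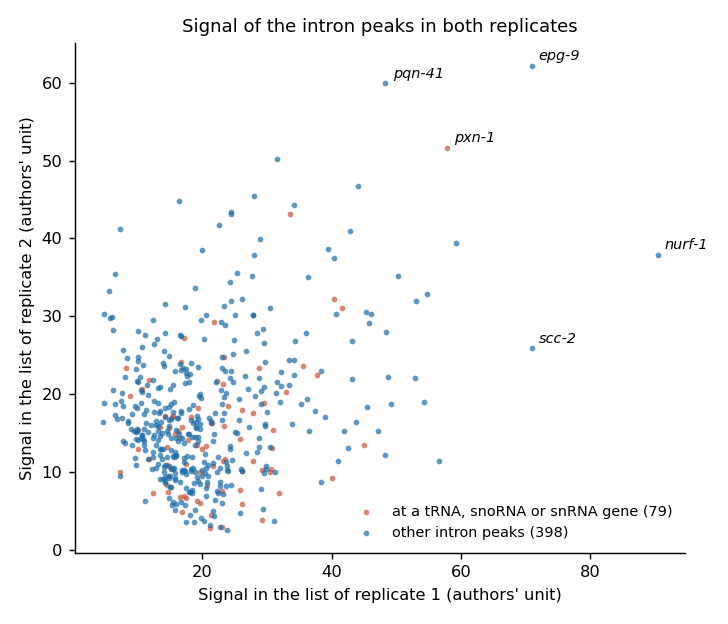
Signal of each intron peak in the list of replicate 1 (x axis) and of replicate 2 (y axis), in the unit of the authors' peak caller, for the 477 peaks with an overlapping peak in both lists. Points in red lie at a tRNA, snoRNA or snRNA gene, and the 5 peaks with the highest pooled signal are named. Most points form a cloud with little order between the replicates, and epg-9, pqn-41 and pxn-1 are high on both axes.

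Several genes held a row of peaks. T28B11.1 had 7, all in its first intron of 17091 bp, spread over 11900 bp with gaps of 814 to 2904 bp between summits. The highest, at rank 202, had a pooled signal of 77.8, with 34.2 in replicate 1 and 44.3 in replicate 2, and the others had 27.8 to 63.3. The gene pkg-2, which encodes a cGMP-dependent protein kinase, also had 7, in 2 introns over 8972 bp, with a best rank of 454. In scd-1, a gene found through the dauer decision, 5 peaks lay in 2 introns.

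Hosts of 4 peaks were pqn-41, mnk-1, Y111B2A.12, ccch-1 (a CCCH zinc-finger gene), daf-5 (a Ski and Sno relative of the TGF-beta pathway for dauer entry) and lin-14 (a regulator of larval stage timing). The 4 daf-5 peaks lay in the first intron over 10150 bp, and the 4 of lin-14 in 2 introns over 9218 bp, with a best rank of only 1225. Hosts of 3 peaks included unk-1, nhr-19, zfp-1, rpoa-1 (the largest subunit of RNA polymerase I), hlh-30 (a TFEB-type helix-loop-helix factor), aakg-1 and pde-4 (an AMP kinase subunit and a phosphodiesterase), sma-9 (a Schnurri-type factor of the TGF-beta pathway for body size), lag-1 (the transcription factor of Notch signalling), daf-16 (the FOXO factor of insulin signalling), unc-82 (a muscle kinase) and dkf-2 (a protein kinase D). All 3 peaks of hlh-30 held GAGAGA. Peaks of 1 gene share a locus and are not independent of each other.

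**Figure D3:**
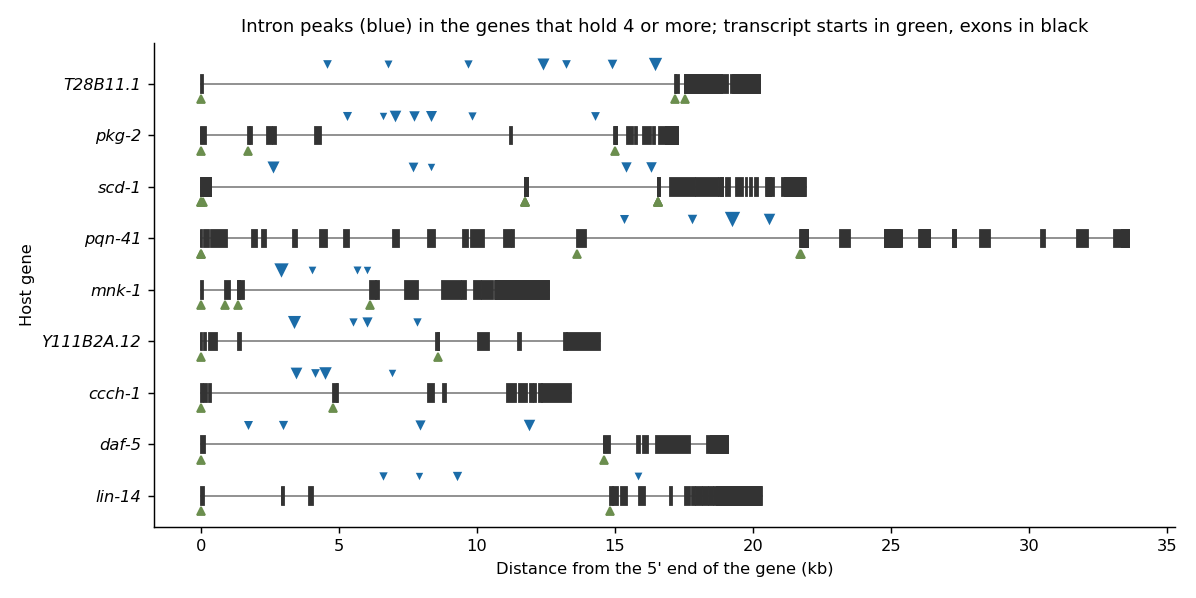
Maps of the 9 genes with 4 or more intron peaks, drawn to scale from the 5′ end of the gene (x axis, kb). Black boxes are exons of the merged gene model, green triangles starts of protein-coding transcripts, and blue triangles summits of intron peaks, with an area that follows pooled signal. In T28B11.1 and daf-5 all the summits lie in the first intron, 7 and 4 of them.

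A gene's outermost 5′ end is not its only start. Of the intron peaks, 91 (18.6%, interval 15.4 to 22.3) lay within 500 bp of the start of a shorter protein-coding transcript, where 9.08% of eligible sequence lies. Density there was 34.5 peaks per Mb (27.7 to 42.3), against 15.1 (13.7 to 16.7) farther away. Peaks near such a start also stood somewhat higher in the list, with a median rank of 1372, against 1603 for the others. The highest 5 were in nurf-1, scc-2, F26F12.3, uba-5 (the activating enzyme of UFM1) and sir-2.2 (a sirtuin gene). That of sir-2.2 had a pooled signal of 77.3, with 48.4 and 28 in replicates 1 and 2, and lay 199 bp from an internal start. The other 399 peaks (81.4%) had no annotated start of a protein-coding transcript that close. Starts of non-coding RNA genes were not counted here. For 348 peaks (71%) the nearest gene 5′ end was that of the host itself, and 294 (60%) lay more than 2000 bp from the 5′ end of every gene.

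Just outside the limit of 500 bp stood peaks of C09H10.5 (515 bp from the nearest gene 5′ end), alh-1 (an aldehyde dehydrogenase gene, 526 bp) and uba-5 (532 bp), with pooled signals of 50.4, 72.7 and 77.4. Just inside it, and so counted as promoter peaks, were summits in introns of twk-5 (500 bp), K10C3.4 (494 bp) and zfp-1 (491 bp), with 49.2, 42.5 and 50.3. In all, 98 promoter summits lay in introns.

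Many intron peaks coincided with small non-coding RNA genes. Counting genes that overlap the summit or lie within 100 bp of it, 83 peaks (16.9%, interval 13.9 to 20.5) were at a tRNA, snoRNA or snRNA gene, while only 0.451% of eligible sequence lies there. The tRNA genes accounted for 55 peaks, snoRNA genes for 25 and snRNA genes for 3. Of 249 tRNA genes in eligible introns 57 (22.9%, interval 18.1 to 28.5) had an intron peak, as did 25 of 134 snoRNA genes (18.7%) and 4 of 51 snRNA genes (7.84%). None of 84 miRNA genes had one, which allows a share of up to 4.37% (upper Wilson bound). The highest of these peaks were those of pxn-1 (snoRNA ZK994.7) and dhc-4, whose peak in intron 31 of 34 (III 10989521 to 10989770) had a pooled signal of 81.4, with 40.4 and 32.2 in replicates 1 and 2, at the snRNA gene R07E5.16. At tRNA genes the signals were lower, and the highest such peak, in intron 5 of T03G6.3, ranked 431 with 60.4, and 35.6 and 23.6 in the replicates. The median rank at tRNA genes (1567) was close to that of peaks at no short non-coding RNA gene (1590). With all annotated non-coding RNAs of up to 200 bp included, 124 peaks (25.3%) were at such a gene, among them those of F26F12.3, drap-1 and aak-2 (the catalytic subunit of AMP kinase).

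The DNA under intron peaks was richer in G and C than the introns around it. Within 50 bp of the summit the median G+C content was 46.5% (quartiles 43.6 and 51.5), against 35.6% in a window of the same length 500 bp downstream along the host gene and 36.6% upstream. Promoter summits had a like median of 47.5%, and eligible introns as a whole 32.2%. Lower-case letters, which mark repeats and simple sequence in the RefSeq genome, made up a mean of 12% of the bases at intron summits, against 51.6% of eligible intron bases. In short introns the flanking window can reach an exon.

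All 2080 words of 6 letters (each merged with its reverse complement) were compared between the summit window of 101 bp and the downstream flank. With an exact McNemar test, two-sided, and Benjamini-Hochberg adjustment over all words, 243 words (11.7%) were more frequent at summits and 194 (9.33%) less frequent. These calls moved with base composition. All 34 called words with neither G nor C were lower at summits, and all 21 called words made only of G and C were higher. Words of mixed composition moved too. Of 640 words with 3 letters G or C, as in GAGAGA, 60 were called higher and 11 lower. Of 492 words with 4, as in CACGTG, 89 were called higher and 0 lower. No word was adjusted for composition, and its part in these calls, GAGAGA and CACGTG included, was not tested. Ordered by p, the first of the higher words was GAGAGA, at 150 summits (30.6%) and 33 flanks (6.73%), with an exact adjusted p of 5.92e-19. It was in 4.36% of windows tiled over eligible introns. In place 5, behind 3 words with letters in common with the first, was CACGTG, at 59 summits (12%) and 8 flanks (1.63%), with an exact adjusted p of 3.86e-09, and in 1.37% of tiled windows. Both held with the upstream flank, where GAGAGA was in 5.51% and CACGTG in 2.24% of windows.

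Of the 59 peaks with CACGTG, 16 also held GAGAGA, beside 150 of all 490 peaks. There were 134 peaks with GAGAGA alone, 43 with CACGTG alone, 16 with both and 297 with neither. Most GAGAGA peaks held a short run, with a median longest alternating run of 7 bp, while 16 had a run of 12 bp or more and the longest was 59 bp. In bins of 50 bp along the host gene, GAGAGA was in 19% of peaks in the bin at the summit and fell to 3.27% at 500 bp on either side. CACGTG was more narrowly placed, at 8.16% in the bin at the summit, 4.49% and 4.08% in the bins next to it, and at most 2.45% beyond.

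**Figure D4:**
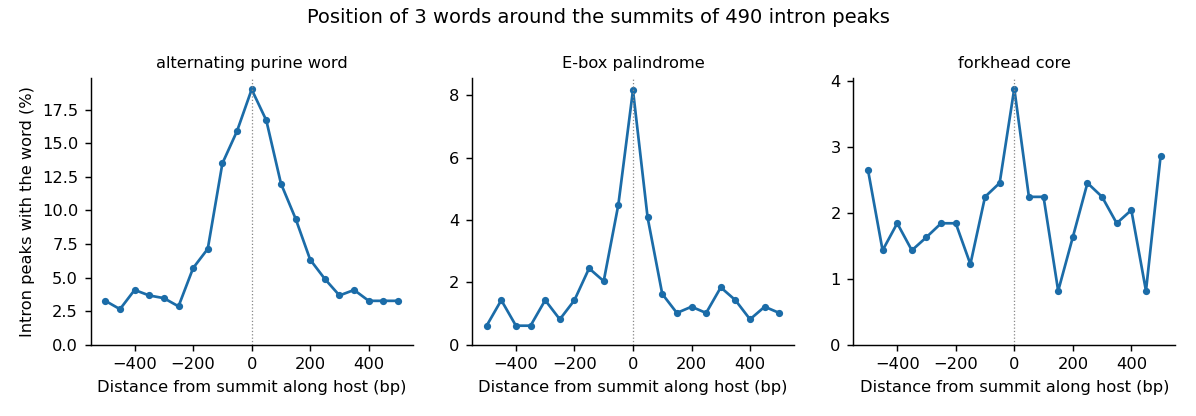
Share of the 490 intron peaks (y axis, %) with a copy of each word, in bins of 50 bp by distance from the summit along the host gene (x axis, bp). The words are GAGAGA (left), CACGTG (centre) and the forkhead core (right), each panel with its own y scale. The first peaks at 19% and the second at 8.16% in the bin at the summit, while the third is at 3.88% there and between 0.816% and 2.86% elsewhere.

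Both words were also commoner at intron peaks than at promoter peaks. GAGAGA was at 30.6% of intron peaks and 19.2% of promoter peaks (Fisher's exact test, two-sided, adjusted p = 7.49e-07 over 2 comparisons), and CACGTG at 12% and 5.39% (exact adjusted p = 6.24e-06). Against peaks outside genes, with 27.1% and 9.90%, neither difference passed (exact adjusted p = 0.194 and 0.257), with differences of 3.56 and 2.14 points. Over all 2080 words, 164 (7.88%) were more frequent at intron than at promoter peaks and 180 (8.65%) less frequent by Fisher's exact test with adjustment over all words. GAGAGA and CACGTG were among the 164 (exact adjusted p = 2.16e-05 and 0.000114). Median G+C content in this comparison was 46.5% at intron and 47.5% at promoter summits.

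Against promoter peaks the forkhead core went the other way. It was at 26 intron peaks (5.31%, interval 3.65 to 7.66) and 20 of their downstream flanks (4.08%), and the difference did not pass the test (exact McNemar test, two-sided, p = 0.451). With the upstream flank the count was 17 (exact p = 0.211). Tiled intron windows held it in 2.77%. None of these shares was adjusted for the higher G+C content at summits than in flanks and introns as a whole. At promoter peaks the share was 15.1%, a difference of -9.84 points for intron peaks (Fisher's exact test, two-sided, adjusted p = 3.4e-09), and at peaks outside genes 6.00% (exact adjusted p = 0.705). The gap to promoters rested on TGTTTGC, at 3.27% of intron peaks and 13% of promoter peaks (exact adjusted p = 9.01e-11), while TGTTTAC was at 2.04% and 2.40%. The highest intron peaks with a core were those of pxn-1, scc-2, fkh-7, wht-3 (an ABC transporter gene), cye-1 (cyclin E), F57G12.2, mtm-3 (a myotubularin phosphatase), aakg-4, C48D1.5 and ppat-1, with pooled signals of 50.9 to 106. Among the 1315 highest optimal peaks the core was at 7.53% of intron peaks and 2.69% of their flanks (exact p = 0.049), a split that was 1 of 11 alternatives. A missing match says only that these letters are not in the window.

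**Figure D5:**
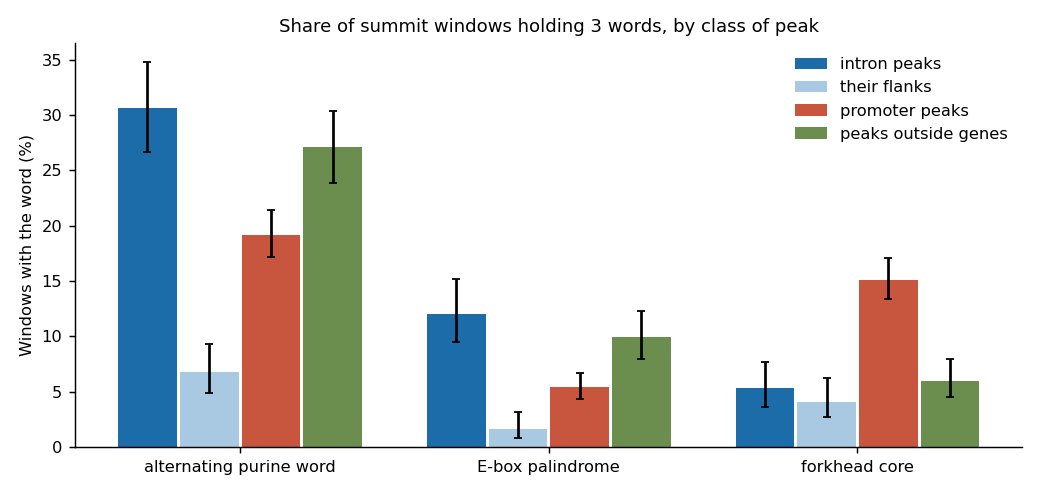
Share of windows of 101 bp (y axis, %) that hold GAGAGA (left), CACGTG (centre) or the forkhead core (right), for the 490 intron peaks, their downstream flanks, the promoter peaks and the peaks outside genes. Bars are shares and whiskers 95% Wilson intervals over windows. GAGAGA and CACGTG are at 30.6% and 12% of intron peaks and the forkhead core at 5.31%, which is below the 15.1% of promoter peaks.

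The words were also counted by kind of intron peak. GAGAGA was at 29.7% of peaks near an internal start and 30.8% of the others, and CACGTG at 12.1% and 12%. At tRNA, snoRNA and snRNA genes GAGAGA was at 19 of 83 peaks (22.9%, interval 15.2 to 33), against 131 of 407 elsewhere (32.2%, 27.8 to 36.9). CACGTG was at 2 of these 83 peaks (2.41%, 0.663 to 8.37), against 57 of 407 elsewhere (14%, 11.0 to 17.7). The forkhead core was at 8 of the 83 (9.64%) and 18 of the 407 (4.42%), with overlapping intervals. Shares in first introns (27.5% for GAGAGA, 13.7% for CACGTG) were close to those in later ones (31.8% and 11.4%). These splits were not tested.

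Host genes were also counted in 16 lists of genes by role, read against the 2.21% of all genes with eligible introns and the 16.9 peaks per Mb over all introns. Neither reference allows for intron length, although density was higher in introns over 2000 bp. The densities of the lists have no interval. Transcription factors of cell fate held 28 intron peaks in 17 of 138 genes (12.3%), or 51.9 peaks per Mb. Examples are fkh-7, mdl-1 (a Mad-type partner of Max, which as a class bind E-boxes), zip-2 (a bZIP factor) and lin-28 (an RNA-binding regulator of stage timing), with best pooled signals of 81.5, 62, 55.5 and 45.1. The fkh-7 peak had 40.3 and 37.5 in replicates 1 and 2. The unc-130 gene itself held 1 peak, in its second intron of 240 bp (chromosome II 11283121 to 11283370), with a pooled signal of 29.7 at rank 1873 and 18.6 in each replicate. The labels describe the insertion as targeting unc-130, so a further copy of this locus could be in these animals, and its part in the signal was not tested. Nuclear hormone receptor genes held 14 peaks in 12 of 268 genes (4.48%, 35.3 per Mb), led by nhr-19, nhr-14, nhr-3 and nhr-31.

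Signalling genes (kinases, small GTPases, TGF-beta and Wnt) held 24 peaks in 16 of 121 genes (13.2%, 36.7 per Mb), led by aak-2, daf-5, mpk-1 (the ERK MAP kinase) and egl-4 (a cGMP-dependent kinase). Genes of body wall muscle contraction and attachment held 12 peaks in 11 of 55 genes (20%, 44.5 per Mb). They include unc-94 (tropomodulin), with 2 peaks and a best signal of 59.8, sca-1 (the calcium pump of the sarcoplasmic reticulum), zyx-1 (zyxin) and dim-1, all 3 with signals of 33.8 to 37.8. The median best rank of the muscle hosts was 1636, beside a median of 1582 over all intron peaks. Among chromatin regulators 5 of 91 genes were hosts (5.49%, 28.9 per Mb), namely nurf-1, scc-2, zfp-1, set-18 and pbrm-1.

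Axon guidance and cell migration, the process for which UNC-130 is best known, had 9 hosts of 59 genes (15.3%), but by length of intron its 22.8 peaks per Mb was nearer the 16.9 of all introns. Its hosts were led by unc-73, unc-33 (a CRMP protein of axons), clr-1 and ptp-3 (receptor tyrosine phosphatases), with signals of 33.7 to 44.2. The netrin receptor gene unc-5 held 1 peak of 23.9. Adhesion and basement membrane genes (10 of 62, 16.1%, 19.1 per Mb) and cytoskeleton and motor genes (7 of 107, 6.54%, 15.7 per Mb) were likewise nearer by length than by share. The densities of axon guidance, adhesion and cytoskeleton genes rest on 9, 10 and 7 peaks. How near they lie to that of all introns is therefore uncertain. Ion channel genes had 2 hosts, osm-9 and unc-49. Their share of 1.92% (interval 0.529 to 6.74) was close to the 2.21% of all genes with eligible introns. By length of intron they had 2.93 peaks per Mb over 0.682 Mb, below the 16.9 of all introns, but this density rests on 2 peaks. Synaptic genes had 3 hosts of 81 (3.70%, 10.6 per Mb), unc-41, pde-4 and unc-43. Chemoreceptor families had 5 of 1290 (0.388%, 6.15 per Mb), and ribosomal protein genes 0 of 29, which allows a share of up to 11.7%, with 0.00349 Mb of eligible introns. Genes named unc had 12 of 93 (12.9%, 26.1 per Mb), egl 2 of 27 and lin 2 of 46, and genes named col 1 of 76, col-99, which encodes a membrane-bound collagen and not one of the cuticle. The lists overlap, were chosen with earlier results known, and these shares are descriptions with no test.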

How the data were processed

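The authors deposited narrowPeak lists for the 2 replicates, for both pooled, and an optimal list that, per the deposited notes, was derived from these. Each peak has a signal assigned by the authors' peak caller, comparable only within its list. The aligner, caller and threshold are not given in the sources used; read depth is unknown. The lists on ce10 were not used. The members and gene lists were chosen with earlier results of these data known.

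Summits were placed on Ensembl release 115 gene models of WBcel235 (19973 protein-coding genes on 6 chromosomes). Introns are the stretches of a gene body left by the coding exons and untranslated regions of all its transcripts, numbered from its 5′ end. Exons of non-coding transcripts of the gene were not taken out. Words were searched on both strands within 50 bp of the summit. Shares have 95% Wilson intervals and densities exact Poisson intervals. Paired windows were compared by exact McNemar tests and classes of peak by Fisher's exact test, with adjusted p-values under 0.05 as the threshold. Python 3.11.15 with scipy 1.17.1 was used. The word comparison and the classes of position were checked on simulated data. The simulated paired windows had equal G+C content, unlike real summits and flanks, so the check does not cover that difference. Genes named are hosts of the 15 highest peaks, of 3 or more peaks, of the 5 longest introns, of the 10 highest with a forkhead core, of peaks next to the 500 bp limit, of the 5 highest at internal starts and at non-coding RNA genes, and up to 4 per gene list; others were chosen after their values were seen. Peaks, not animals, are the units of every test. The alternatives tried were other promoter limits, transcript starts, midpoints, the 1315 highest peaks, no non-coding RNA peaks, single replicates, other windows, flanks and overlaps.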

Additional observations from a re-analysis of the deposited data

How the results depend on the processing

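GAGAGA and CACGTG stayed more frequent at intron peaks than at flanks (11 of 11 alternatives each) and than at promoter peaks (10 of 10 each). Both words were picked from a scan of these same summits, and most alternatives share peaks with the main setting. These counts are therefore not independent support. The forkhead core stayed less frequent than at promoter peaks in 10 of 10. Without replicate 1 the lead of CACGTG over promoter peaks was only 3.01 points (exact adjusted p = 0.0447). Against the flank, the forkhead core led by 4.84 points among the 1315 highest optimal peaks (exact p = 0.049) and trailed, at -0.546, without peaks at short non-coding RNA genes. The share of peaks high in both replicates turned to 4.05 points above that of promoter peaks among the same 1315, and could not be had without a replicate. These held 186 intron peaks. Numbers of intron peaks were 470 to 556 without a replicate.

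A promoter limit of 1000 bp gave 22.2% in first introns and a median intron of 3042 bp, and a limit of 250 bp gave 26.1% near internal starts. With the starts of every transcript as the limit the median was 2940 bp and the share near internal starts 0 by construction. An internal start within 250 bp gave 8.78%. Without peaks at short non-coding RNA genes the median was 3225 bp, and introns over 2000 bp were 4.21 times as dense as shorter ones. Without a replicate, first introns held 26 to 28.4%, the median was 2074 to 2794 bp, and internal starts had 19.4 to 21.3%. The cause of these shifts was not tested. No analysis paired across conditions was possible because there is 1 group. The settings for the words GAGAGA and CACGTG, for intron density and for intron numbers along the longest transcript (28.4% first), were added after seeing the data. Read depth is unknown, so a region without a peak says nothing about occupancy there.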

Other observations

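Below the optimal list, the pooled list goes on to 30000 candidate peaks, which were not thresholded. Among intron candidates the share with GAGAGA was 30.6% of the 490 optimal ones, 23.6% of 573 at ranks 2632 to 5000, 15.8% of 1194 to rank 10000, 6.78% of 2450 to rank 20000 and 5.79% of 2625 to rank 30000. CACGTG was at 12%, 4.54%, 3.18%, 2.41% and 2.32% in the same order. The forkhead core moved less, at 5.31%, 4.54%, 4.19%, 3.8% and 3.89%. Mean G+C content moved with these shares, at 47.4% in the optimal list and 36.8% at the lowest ranks, and its part in them was not tested. The share of candidates that were in the optimal list was 6.68% for introns, 18.1% for promoters and 9.64% outside genes.

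The word TGATAA, which holds the core bound by GATA factors, was at 8.98% of intron summits and 9.59% of their flanks, so it was no commoner at the summit (exact McNemar test, adjusted p = 0.969 over all words). It was nevertheless above the 3.71% of promoter peaks (Fisher's exact test, adjusted p = 0.000532), and was chosen after its values were seen. Among the words that were lower at intron than at promoter peaks, ACGCGC was at 5.71% of intron and 20.2% of promoter peaks, and GCAAAC, which holds part of the TGTTTGC core, at 5.92% and 19.4%.

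Intron peaks were denser on chromosome X (23.7 per Mb, Poisson interval 19.5 to 28.4) and on II (22.1, 17.8 to 27.2) than on the remaining chromosomes (11.9 to 15.3 per Mb). The interval of II overlapped those of III (12 to 19.3), IV (11.4 to 18.2) and V (11.9 to 18.9), and not that of I (9.2 to 15.3). These densities were not tested or split by intron length.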
